A study of Homo sapiens with 24 samples.

Results

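The epithelial-to-mesenchymal transition (EMT) genes described here were the transcription factors ZEB1, ZEB2, SNAI1, SNAI2, TWIST1 and TWIST2, the cadherins CDH1, CDH2 and CDH11, and the intermediate filament gene VIM. They were taken by symbol from the expression tables, and these 10 genes are among 66659 symbols listed in at least 1 of the 4 tables. In EMT an epithelial cell gives up its cell-to-cell junctions and takes on the shape and motility of a mesenchymal cell. The ZEB, SNAIL and TWIST proteins are DNA-binding factors that drive this change, and ZEB1, ZEB2, SNAI1 and SNAI2 (also called SLUG) repress CDH1 through E-box sequences in its promoter. CDH1 encodes E-cadherin, the adhesion molecule of epithelial junctions, CDH2 encodes N-cadherin and CDH11 encodes OB-cadherin, the latter pair being typical of mesenchymal cells, and VIM encodes vimentin, their main intermediate filament. In triple-negative breast cancer (TNBC), which lacks estrogen receptor, progesterone receptor and HER2, some cell lines are mesenchymal in shape and others epithelial, and stem-like cells have been described in both states.

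RNA-seq was done on 24 libraries of 3 established TNBC cell lines, in 8 groups of 3 biological replicates. Hs578T and HCC70 cells were sorted by flow cytometry into breast cancer stem-like cells (BCSC), which were CD24-CD44+ and had high aldehyde dehydrogenase activity (ALDH+), and non-BCSC, which lacked both features. MDA-MB-231 cells carried by lentivirus either a control sgRNA (sgCtrl) or 1 sgRNA against KIF20A (KIF20A sg1), a mitotic kinesin, and in a separate experiment either empty vector (EV) or KIF20A for overexpression (KIF20A OE). Each of the 4 experiments has its own table and a batch number of its own in the labels, which do not say what the batch is, so every test stayed within a table, and levels set side by side across tables are descriptions only. None of the groups carried a further allele or drug according to the labels.

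Recovered read totals ran from 15971297 to 51018667 per library. KIF20A was higher in BCSC of both sorted lines, at 271 to 323 against 214 to 218 TPM in Hs578T and 123 to 129 against 68.7 to 74.0 TPM in HCC70. In MDA-MB-231 KIF20A was 153, 173 and 156 normalized CPM with sgCtrl and 122, 145 and 91.1 with KIF20A sg1, where the adjusted p was 0.69 by limma. KIF20A was 101, 143 and 124 CPM in EV and 1349, 269 and 896 CPM under the KIF20A OE label. Those libraries stood apart from every other MDA-MB-231 library: IRS4, an insulin receptor substrate, was 1750, 1219 and 1744 CPM there and listed at 0 in the EV, sgCtrl and KIF20A sg1 libraries, and CD44 was 0.125 to 1.23 CPM against 523 to 788 CPM in EV. They are called the libraries labelled KIF20A OE throughout. Of the receptors that define TNBC, ESR1 did not exceed 2.44 TPM in HCC70 and 0.501 in any other library, while ERBB2 transcripts were present throughout (22.3 to 140). PGR has no row for HCC70, did not exceed 0.125 TPM in Hs578T, was listed at 0 in the EV, sgCtrl and KIF20A sg1 libraries, and was 0.250, 0 and 8.89 CPM under the KIF20A OE label. Of 3 leukocyte genes, PTPRC stayed at or below 0.667 and CD3E, where listed, at or below 0.301, but CD14 was 84.0 to 119 TPM in HCC70 and 5.49 to 10.5 normalized CPM in the sgRNA experiment, against at most 4.76 CPM in EV.

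Hs578T and HCC70 had opposite E-cadherin and vimentin levels in either fraction. In Hs578T, a line of mesenchymal shape, CDH1 was listed at 0.0534, 0.0159 and 0 TPM in non-BCSC and 0.0323, 0.0158 and 0.0591 TPM in BCSC, values that rest on at most 4 reads in a library. VIM in the same libraries ranged from 3661 to 4016 TPM. In HCC70, an epithelial line, CDH1 ranged from 460 to 576 TPM and VIM from 4.56 to 6.65 TPM. ZEB1 and ZEB2 followed VIM, with ZEB1 at 43.0 to 47.8 TPM in Hs578T and 0.112 to 0.307 TPM in HCC70, and ZEB2 at 15.4 to 17.9 TPM in Hs578T and 0.0688 to 0.120 TPM in HCC70. The HCC70 values of ZEB1 and ZEB2 rest on 8 to 26 and 9 to 18 reads per library. SNAI1 had the reverse order of the ZEB genes, at 2.26 to 3.25 TPM in Hs578T and 7.04 to 12.3 TPM in HCC70. SNAI2 was well measured in both lines, at 57.7 to 92.0 TPM in Hs578T and 27.8 to 32.7 TPM in HCC70. TWIST1, TWIST2, CDH2 and CDH11 have no row in the HCC70 table and were not analysed there. The lines were prepared and normalized in separate tables, so cell line and batch cannot be told apart and none of these line differences was tested.

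Within Hs578T non-BCSC the order of mean TPM, a scale per transcript length, was VIM, CDH11, CDH2, SNAI2, ZEB1, TWIST1, ZEB2, TWIST2, SNAI1 and CDH1, and the replicate ranges of neighbours in that order did not overlap. VIM exceeded 99.9% of the genes above 0 in that group, CDH11 exceeded 95.9% and SNAI1 exceeded 35.0%. In HCC70 non-BCSC the order was CDH1, SNAI2, SNAI1, VIM, ZEB1 and ZEB2. There CDH1 exceeded 98.7% of genes above 0 and VIM exceeded 39.2%, while the ranges of SNAI1 and VIM, at 7.04 to 9.04 and 5.88 to 6.65 TPM, lay next to each other without overlap and those of ZEB1 and ZEB2, at 0.112 to 0.295 and 0.0688 to 0.120 TPM, overlapped.

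**Figure D1:**
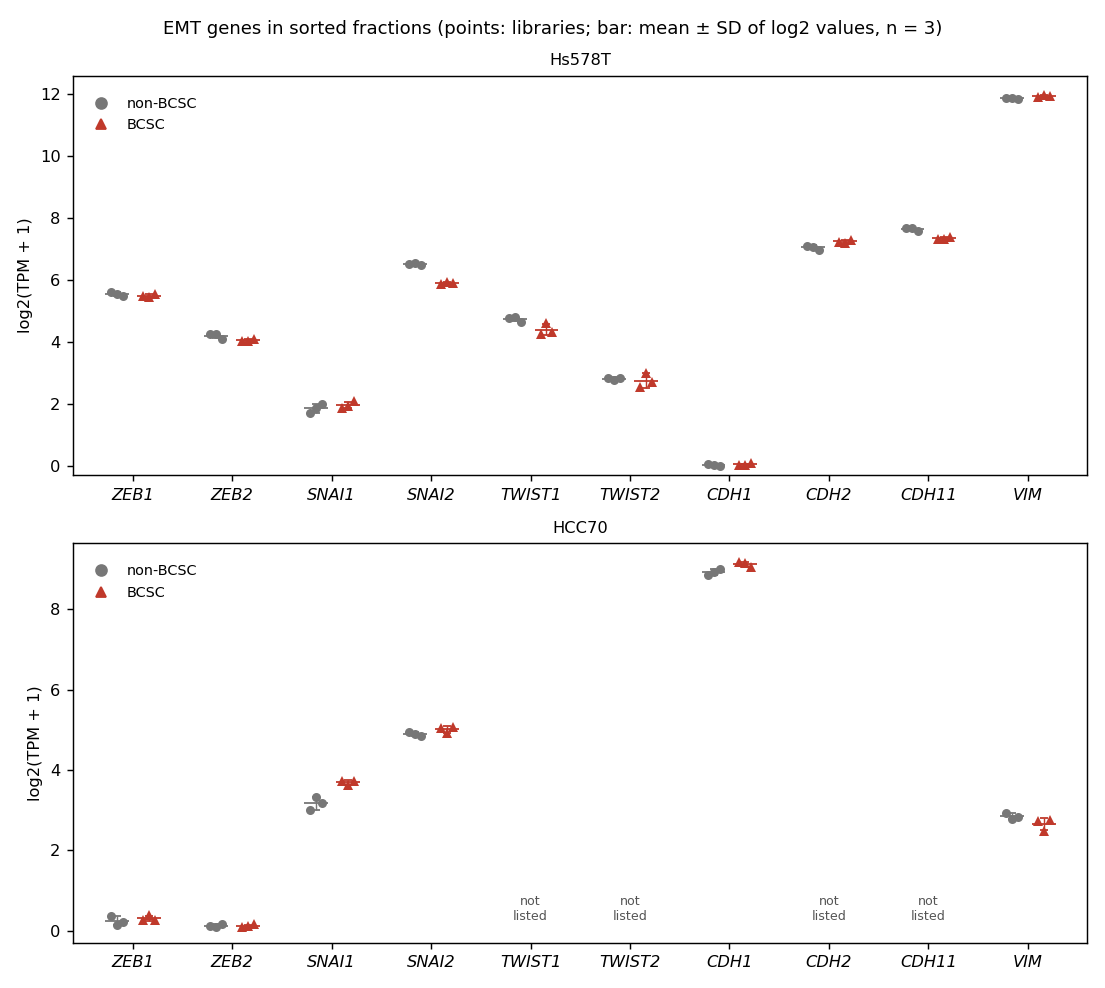
Levels of the EMT genes in sorted Hs578T (top) and HCC70 (bottom) libraries as log2(TPM + 1), with circles for non-BCSC, triangles for BCSC, and bars for the mean ± SD of the log2 values (n = 3). SNAI2 lay lower in all 3 Hs578T BCSC libraries, CDH1 was near 0 in Hs578T and above 450 TPM in HCC70, and 4 genes are not listed for HCC70.

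The first comparison asked which genes separate BCSC from non-BCSC in Hs578T. SNAI2 fell in BCSC, and so did CDH11, while the other members tested did not pass the threshold. SNAI2 was 90.1, 92.0 and 87.7 TPM in non-BCSC and 57.7, 60.5 and 58.9 TPM in BCSC. The BCSC values lay far below all non-BCSC values, with a mean ratio of 0.656 and a log2 fold change of -0.60 (SE 0.04, adjusted p = 0.00052 by limma with Benjamini-Hochberg adjustment over 13324 genes). CDH11 was 205, 202 and 191 TPM in non-BCSC and 159, 160 and 165 TPM in BCSC, again without overlap, with a log2 fold change of -0.30 (SE 0.04, limma adjusted p = 0.0080). That call was lost when the second non-BCSC replicate (adjusted p = 0.058) or the first BCSC replicate (adjusted p = 0.050) was left out.

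TWIST1 and CDH2 lay just outside the limma threshold in Hs578T. TWIST1, the basic helix-loop-helix factor, was 26.5, 27.0 and 24.2 TPM in non-BCSC and 18.3, 23.2 and 19.1 TPM in BCSC, lower in every BCSC library, with a log2 fold change of -0.35 (SE 0.09, limma adjusted p = 0.061). CDH2 was 135, 134 and 124 TPM in non-BCSC and 149, 144 and 156 TPM in BCSC, higher in every BCSC library, with a log2 fold change of 0.19 (SE 0.05, limma adjusted p = 0.064). On recovered reads TWIST1 passed by edgeR (adjusted p = 0.047) and DESeq2 (adjusted p = 0.027), and CDH2 passed by edgeR (adjusted p = 0.0044) and DESeq2 (adjusted p = 2.67e-05). The pair of N-cadherin and OB-cadherin genes therefore had fold changes of opposite sign in the same libraries.

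The remaining Hs578T members did not pass. VIM was 3700, 3737 and 3661 TPM in non-BCSC and 3817, 4016 and 3847 TPM in BCSC, a log2 fold change of 0.07 with a 95% interval of -0.03 to 0.18, and its groups did not overlap. ZEB1 was 47.8, 45.7 and 43.6 TPM against 43.9, 43.0 and 45.2 TPM in BCSC, with overlapping groups and an interval of -0.17 to 0.06. ZEB2 was 17.9, 17.9 and 16.2 TPM against 15.4, 15.5 and 16.3 TPM, where only the highest BCSC library reached the lowest non-BCSC library. The limma adjusted p-values were 0.39 for VIM, 0.59 for ZEB1 and 0.22 for ZEB2. TWIST2 was 6.21, 5.80 and 6.14 TPM against 4.88, 7.08 and 5.50 TPM, and SNAI1 was 2.26, 2.64 and 2.98 TPM against 2.69, 2.84 and 3.25 TPM, and the groups overlapped for each. The 95% intervals of their log2 fold changes were -0.32 to 0.20 for TWIST2 and -0.12 to 0.36 for SNAI1. CDH1 was too low to be tested.

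Of the 9 members tested in Hs578T, 2 were called, both lower in BCSC, and 7.15% of all genes tested were called. The groups did not overlap for 5 of the 9, against 29.0% of all genes. The median log2 fold change was -0.06 over the 9 members and -0.01 over all genes. Of the called genes 40.5% were higher in BCSC, and 52.0% were under median-of-ratios scaling. In bulk RNA a lower level of these transcripts cannot be told apart from fewer cells that carry them. The sorting enzyme gene ALDH1A3 moved with the fraction in these libraries, at a mean of 706 TPM in BCSC and 289 TPM in non-BCSC, whereas CD44 was 579 and 558 TPM and CD24 83.1 and 86.2 TPM. The part that the composition of the sorted fractions has in the SNAI2 and CDH11 values was not tested.

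Other mesenchymal genes were lower in Hs578T BCSC more often than they were higher. Of 24 such genes, all tested, 13 fell and 1 rose, with a median log2 fold change of -0.31 beside -0.01 over all genes. The largest falls were of POSTN, the matricellular protein periostin, from 92.9 to 34.0 TPM (log2 fold change -1.42), of FAP, a surface protease of fibroblasts, from 2.77 to 0.816 TPM (-1.06), and of DCN, the proteoglycan decorin, from 82.1 to 42.1 TPM (-0.95). AXL, a receptor tyrosine kinase, was the gene that rose, from 678 to 789 TPM (limma adjusted p = 0.033). That call was lost with no filter on low genes (0 rose, 11 fell) and when any library other than the second BCSC replicate was left out, where 10 to 13 genes fell. Of 24 epithelial genes, 8 could be tested and 2 of those rose: DSP, which encodes the desmosome protein desmoplakin, from 26.3 to 33.2 TPM, and OCLN, which encodes the tight-junction protein occludin, from 1.90 to 3.08 TPM. The epithelial median was 0.21 on the log2 scale. These 2 calls became 1 without the second non-BCSC replicate and 0 without the first BCSC replicate. Of 18 other EMT regulators 15 were tested, and FOXC2, a forkhead factor, rose from 13.6 to 19.5 TPM while TCF4, an E-box binding factor, fell from 6.91 to 5.24 TPM. Neither was called without the first or the second non-BCSC replicate, and 1 of the list was called without the third non-BCSC, the first BCSC or the third BCSC replicate. None of the 9 other cadherins and catenins tested passed by limma, and edgeR and DESeq2 called 2 each.

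The same comparison in HCC70 gave a different member. SNAI1 rose in BCSC, from 7.04, 9.04 and 7.99 TPM in non-BCSC to 12.3, 11.3 and 12.2 TPM, so that every BCSC library exceeded every non-BCSC library. The values rest on 121 to 279 reads per library, the mean ratio was 1.49 and the log2 fold change 0.52 (SE 0.09, limma adjusted p = 0.035). edgeR and DESeq2 on recovered reads also called SNAI1, with adjusted p = 0.027 and 0.0070. The limma call was lost with no filter on low genes (adjusted p = 0.077), under median-of-ratios scaling (adjusted p = 0.058), and when the third non-BCSC replicate or any BCSC replicate was left out (adjusted p from 0.070 to 0.14), while the log2 fold change stayed between 0.50 and 0.56. With the replicate number as a block, which is no pairing known from the design, the adjusted p was 0.084.

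E-cadherin, vimentin and the other HCC70 members did not pass the threshold. CDH1 was 460, 486 and 508 TPM in non-BCSC and 576, 565 and 530 TPM in BCSC, higher in each BCSC library, with a log2 fold change of 0.20 and a 95% interval of 0.05 to 0.35 (limma adjusted p = 0.12). VIM was 6.65, 5.88 and 6.16 TPM against 5.65, 4.56 and 5.79 TPM, lower in each BCSC library, with a log2 fold change of -0.20 and an interval of -0.43 to 0.04 (limma adjusted p = 0.28). SNAI2 was 30.0, 28.6 and 27.8 TPM against 32.2, 29.3 and 32.7 TPM, with overlapping groups, an interval of -0.03 to 0.27 and a limma adjusted p of 0.30. ZEB1 was 0.295, 0.112 and 0.171 TPM against 0.201, 0.307 and 0.214 TPM, and ZEB2 was 0.0767, 0.0688 and 0.120 TPM against 0.0712, 0.0778 and 0.117 TPM, both overlapping and too low to be tested.

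Of the 4 members tested in HCC70 1 was called, where 2.83% of all genes were called. The groups did not overlap for 3 of the 4, against 30.9% of all genes. Of the called genes 80.5% were higher in BCSC, and 71.7% were under median-of-ratios scaling, 61.7% by edgeR and 54.4% by DESeq2. Among 24 epithelial genes, all tested, 2 rose and none fell by limma: OVOL1, a zinc finger factor of epithelial cells, from 10.7 to 15.7 TPM, and SPINT1, an inhibitor of serine proteases, from 324 to 407 TPM. CDH3, the gene of P-cadherin, was the only one of 7 other cadherins and catenins tested that rose, from 307 to 389 TPM. Leaving out any single library ended the CDH3 call, as did median-of-ratios scaling, and left 0 epithelial calls without the first or the third BCSC replicate and 1 without any of the other 4 libraries. No mesenchymal gene (11 tested) and no other EMT regulator (11 tested) was called by limma, where edgeR called 3 mesenchymal genes and DESeq2 3 mesenchymal genes and 2 other regulators. The median log2 fold changes were 0.10 for epithelial and -0.09 for mesenchymal genes, beside 0.02 over all genes. The sorting genes had mean levels of 857 TPM in non-BCSC and 692 TPM in BCSC for CD24, 87.3 and 98.4 TPM for ALDH1A3, 331 and 362 TPM for ALDH1A1, and 103 and 107 TPM for CD44, and none of the 4 passed by limma (adjusted p from 0.054 for CD24 to 0.79 for CD44). CD14 was 94.9 to 119 TPM in non-BCSC and 84.0 to 90.2 TPM in BCSC (limma adjusted p = 0.095), and its part in the HCC70 values was not tested.

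**Figure D2:**
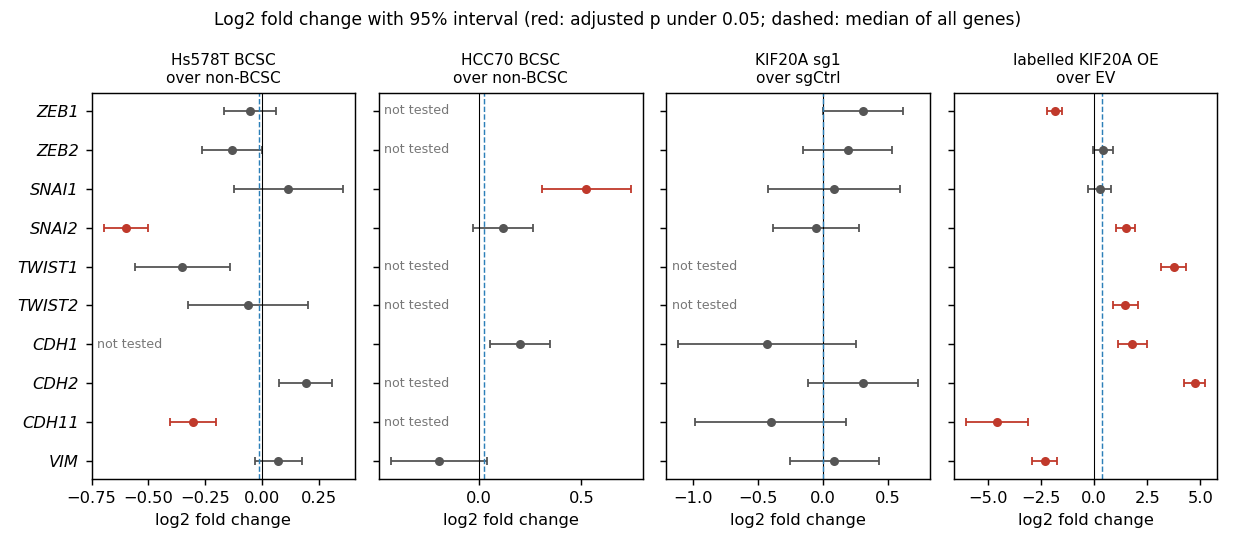
Log2 fold change of each member in the 4 comparisons with its 95% interval from limma, red where the adjusted p was under 0.05, with a dashed line at the median of all genes tested. The x axes differ in range: SNAI2 and CDH11 are red in Hs578T, SNAI1 in HCC70, none with KIF20A sg1, and 8 of 10 in the libraries labelled KIF20A OE.

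Whether the fraction effect differed between the sorted lines was tested with an interaction term over the 12 sorted libraries, in which 3 members could be tested in both lines. The SNAI2 difference between BCSC and non-BCSC differed between the lines, by 0.72 on the log2 scale with the HCC70 value higher (SE 0.07, 95% interval 0.56 to 0.87, limma adjusted p = 0.00035). SNAI2 fell in Hs578T BCSC (log2 fold change -0.60), whereas HCC70 had 0.12. For SNAI1 the difference between the lines was 0.41 (interval 0.10 to 0.72, limma adjusted p = 0.098), so the SNAI1 rise in HCC70 was not shown to differ from the value of 0.12 in Hs578T. For VIM it was -0.27 (interval -0.48 to -0.05, limma adjusted p = 0.11). Under median-of-ratios scaling VIM passed as well, at -0.32 (adjusted p = 0.049). The interaction was called for 7.11% of all 11668 genes tested, of which 79.0% had the higher value in HCC70, or 54.8% under median-of-ratios scaling.

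In MDA-MB-231 with sgCtrl, levels per kilobase of merged exon put VIM first, at 131 normalized CPM per kilobase, followed by CDH11 (12.8), SNAI2 (8.99), ZEB1 (7.33), SNAI1 (0.686), ZEB2 (0.521), CDH1 (0.242) and CDH2 (0.126). Merged exons join all isoforms of a gene, at 26151 bases for ZEB2 and 1705 for SNAI1, so the order of neighbours depends on that length. Before division by length ZEB2 was 13.6 and SNAI1 1.17 normalized CPM, and ZEB1 was 63.4 and SNAI2 29.5. TWIST1 and TWIST2 were listed at 0 in all 6 libraries of that table, where 3 reads would give 0.0602 to 0.0716 normalized CPM. Both had reads in EV of the same line, at 0.532 to 1.53 CPM for TWIST1 and 1.40 to 3.12 CPM for TWIST2. The 0 values may therefore not mean absence, and whether that table counts these 2 genes was not tested. The line thus had vimentin, OB-cadherin, SNAI2 and ZEB1 transcripts and little E-cadherin or N-cadherin transcript. This comparison asked what KIF20A depletion changes.

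With KIF20A sg1 no member passed, and no gene of 12852 tested was called by limma (0% called), although 899 genes had an unadjusted p under 0.05. edgeR called 0 genes and DESeq2 11, none of them a member. ZEB1 was 54.3, 61.3 and 74.7 normalized CPM with sgCtrl and 75.2, 74.6 and 85.0 with KIF20A sg1, where the highest sgCtrl library just passed the lowest KIF20A sg1 library. Its log2 fold change was 0.31 with a 95% interval of 0.00 to 0.62. VIM was 555, 689 and 795 against 764, 709 and 676 normalized CPM, and its interval of -0.25 to 0.43 held changes of either sign. SNAI2 was 29.8, 26.1 and 32.6 against 32.0, 24.6 and 28.8 (interval -0.38 to 0.28), and ZEB2 was 14.2, 12.5 and 14.1 against 15.0, 14.2 and 18.2 (interval -0.15 to 0.53). No member had groups that did not overlap, where 13.0% of all genes tested had, and the median log2 fold change was 0.09 over the 8 members tested and 0.00 over all genes.

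CDH1 and CDH11 had the widest relative spread of the members among the KIF20A sg1 libraries. CDH11 was 161, 163 and 184 normalized CPM with sgCtrl and 107, 221 and 88.2 with KIF20A sg1, so the KIF20A sg1 libraries lay on either side of the controls, with a coefficient of variation of 51.9%. CDH1 was 1.12, 1.82 and 1.46 with sgCtrl and 0.606, 2.16 and 0.191 with KIF20A sg1, from 8 to 107 reads. The second KIF20A sg1 column was the highest and the last the lowest for CDH11, for CDH1 and for KIF20A itself. Of the surface genes examined, CD44 (1370, 1560 and 1241) and CAV1 (1087, 1482 and 963) had that order, while EGFR and AXL did not. The other members tested, VIM, ZEB1, ZEB2, SNAI1, SNAI2 and CDH2, did not have that order. What part the KIF20A level has in the CDH11 and CDH1 spread was not tested. CDH2 was 0.900, 1.37 and 0.963 against 1.25, 1.94 and 1.55, and SNAI1 1.23, 1.64 and 0.642 against 1.59, 1.47 and 0.811, both overlapping. The 95% intervals of the log2 fold changes were -0.98 to 0.18 for CDH11, -1.11 to 0.25 for CDH1, -0.11 to 0.73 for CDH2 and -0.42 to 0.59 for SNAI1. None of the 17 epithelial genes, 13 mesenchymal genes, 11 other EMT regulators or 6 other cadherins and catenins tested was called by limma.

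**Figure D3:**
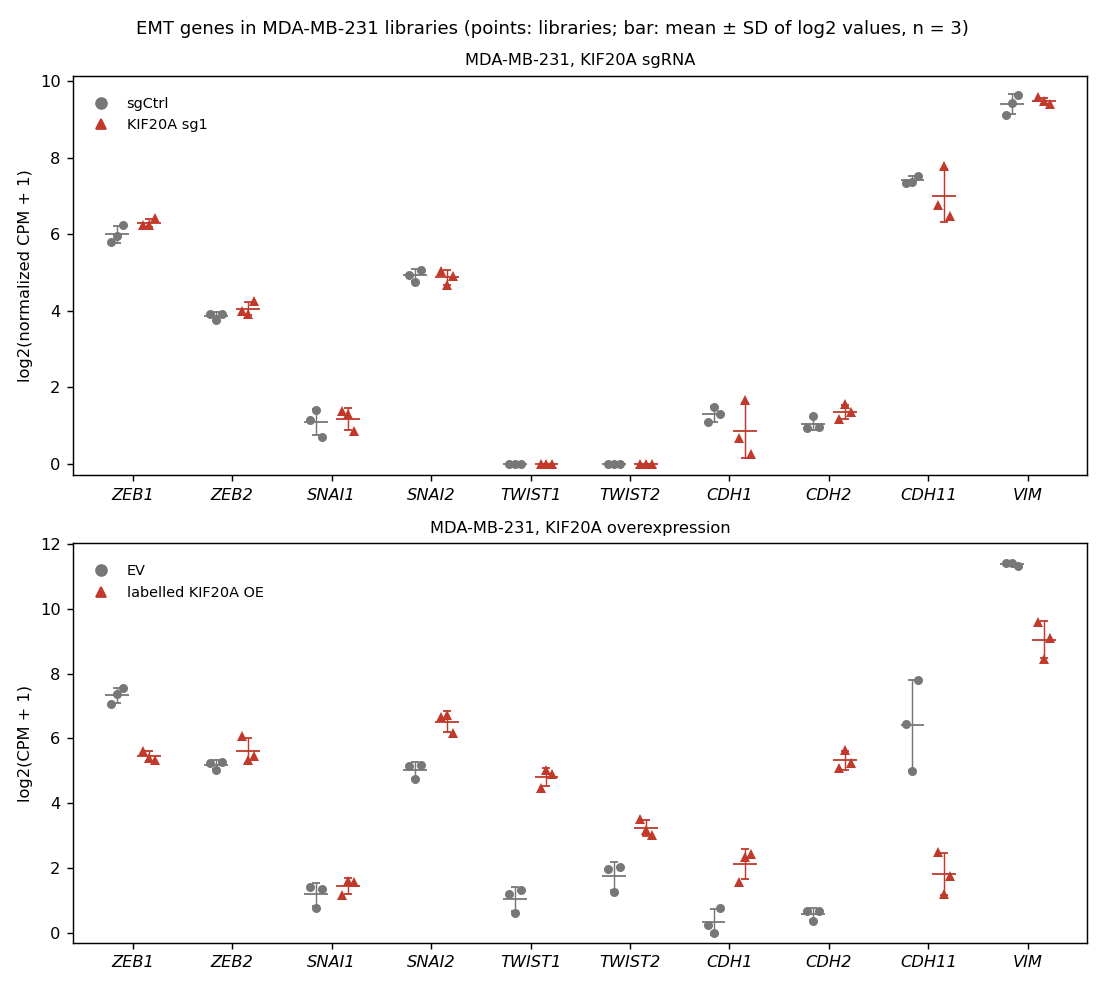
Levels of the EMT genes in MDA-MB-231 libraries as log2(normalized CPM + 1) for sgCtrl and KIF20A sg1 (top) and log2(CPM + 1) for EV and the libraries labelled KIF20A OE (bottom), with circles for controls, triangles for the other group, and bars for the mean ± SD of the log2 values (n = 3). The groups overlapped for every gene in the top panel, and in the bottom panel ZEB1, CDH11 and VIM lay lower and SNAI2, TWIST1, TWIST2, CDH1 and CDH2 higher in all 3 libraries labelled KIF20A OE.

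The EV libraries, from the same cell line in another table, had mean levels of 161 CPM for ZEB1, 2654 CPM for VIM, 112 CPM for CDH11 and 32.0 CPM for SNAI2, beside 63.4, 679, 169 and 29.5 normalized CPM with sgCtrl. TWIST2 was 1.40 to 3.12 CPM and TWIST1 0.532 to 1.53 CPM in EV. The experiments share neither table nor batch, so these differences were not tested.

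The last comparison set the libraries labelled KIF20A OE against EV. VIM, ZEB1 and CDH11 fell, and CDH2, TWIST1, TWIST2, SNAI2 and CDH1 rose, so that the mesenchymal members moved in both directions. VIM was 2735, 2705 and 2520 CPM in EV and 776, 347 and 544 CPM under the KIF20A OE label, a ratio of means of 0.209 and a log2 fold change of -2.33 (SE 0.26, limma adjusted p = 8.20e-05). ZEB1 was 134, 163 and 185 CPM in EV and 48.2, 41.4 and 39.8 CPM, a ratio of 0.269 (log2 fold change -1.86, SE 0.15, limma adjusted p = 1.36e-05). All EV libraries lay above all others for each gene. CDH11 was 85.6, 31.0 and 220 CPM in EV, a spread of 86.6% of the mean, and 4.63, 1.31 and 2.41 CPM under the KIF20A OE label, from 29 to 74 reads (log2 fold change -4.59, SE 0.64, limma adjusted p = 0.00030). Even the lowest EV library exceeded the highest of them.

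N-cadherin had the largest rise among the members. CDH2 was 0.619, 0.290 and 0.588 CPM in EV, from 6 to 13 reads, and 33.1, 49.1 and 36.7 CPM under the KIF20A OE label, which gives 79.4 as the ratio of means, and a log2 fold change of 4.75 on the log2(CPM + 1) scale, which understates changes of low genes (SE 0.22, limma adjusted p = 6.16e-07). TWIST1 was 1.29, 0.532 and 1.53 CPM in EV and 21.4, 31.6 and 28.9 CPM (log2 fold change 3.76, SE 0.26, limma adjusted p = 5.19e-06). TWIST2 was 2.95, 1.40 and 3.12 CPM in EV and 10.5, 7.98 and 7.12 CPM (log2 fold change 1.47, SE 0.27, limma adjusted p = 0.0013). SNAI2 was 34.6, 25.9 and 35.5 CPM in EV and 99.9, 106 and 70.5 CPM (log2 fold change 1.49, SE 0.19, limma adjusted p = 0.00021). CDH1 was 0.190, 0 and 0.706 CPM in EV, from 0 to 12 reads, and 2.00, 4.10 and 4.44 CPM, from 32 to 91 reads (log2 fold change 1.79, SE 0.30, limma adjusted p = 0.00083). None of these 5 genes had overlapping groups, and E-cadherin and N-cadherin transcripts were thus both higher in the same libraries.

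ZEB2 and SNAI1 did not pass. ZEB2 was 37.2, 31.8 and 38.0 CPM in EV and 65.9, 39.1 and 43.3 CPM under the KIF20A OE label, each above the EV libraries, with a log2 fold change of 0.43 (95% interval -0.04 to 0.90, limma adjusted p = 0.091). It passed, at 0.57 (adjusted p = 0.049), only when the second library labelled KIF20A OE was left out. SNAI1 was 1.67, 0.725 and 1.59 CPM against 1.25, 2.03 and 1.98 CPM, with overlapping groups (interval -0.29 to 0.81).

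The median over all genes tested was 0.37 on the log2 scale in this comparison, so values near that size are no larger than the bulk of the table. Under median-of-ratios scaling that median was 0.03, ZEB2 came to 0.07 and SNAI1 to 0.04, and the 8 called members kept their direction and their calls. Of the called genes 66.3% were higher, or 50.6% under that scaling. Of all 15265 genes tested 69.7% were called and 74.1% had groups that did not overlap, beside 8 and 9 of the 10 members. The member counts are thus close to the background, and the listed values describe libraries that differ from EV in most genes. In the libraries labelled KIF20A OE the 5 kidney and neuronal genes IRS4, PAX2, LHX1, NEFL and NEFM summed to 1295 to 1880 CPM. In EV they summed to 0 to 0.143 CPM. The MDA-MB-231 surface genes CD44, EGFR, CAV1 and AXL summed to 48.1 to 58.0 CPM under that label and to 2444 to 3014 CPM in EV. The endothelial genes PECAM1, VWF and CDH5 summed to 0.589 to 36.0 CPM under that label and to 12.9 to 17.2 CPM in EV. The groups overlapped for PECAM1, VWF and the leukocyte genes PTPRC and CD14. The parts of KIF20A and of whatever else separates these libraries in the member values cannot be told apart.

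Each list of other EMT genes also held calls in both directions there, with more falls than rises except among the other EMT regulators. Over all genes tested 69.7% were called, 66.3% of those calls were higher, and the median log2 fold change was 0.37. Of 18 mesenchymal genes tested 5 rose and 11 fell, with a median log2 fold change of -2.79. NT5E, a surface nucleotidase, fell from 1239 to 0.275 CPM and AXL from 962 to 0.771 CPM, whereas NCAM1, a neural adhesion molecule, rose from 0.0714 to 45.7 CPM, the gelatinase gene MMP2 from 1.09 to 8.49 CPM and FBLN5, fibulin 5, from 0.959 to 9.15 CPM. The NCAM1 mean in EV lay below the 0.143 to 0.176 CPM that 3 reads would give there. Of 15 epithelial genes tested 4 rose and 9 fell, with a median of -2.01. The claudin genes CLDN4 and CLDN7 fell from 101 to 1.08 and from 70.2 to 1.11 CPM, while LSR, a protein of tricellular junctions, rose from 7.58 to 74.5 CPM, CDS1, a lipid synthesis enzyme, from 2.71 to 29.9 CPM and GRHL1, a grainyhead factor, from 0.475 to 1.81 CPM.

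Of 16 other EMT regulators tested 11 rose and 3 fell, with a median of 0.66 beside 0.37 over all genes. Under median-of-ratios scaling these medians were 0.30 and 0.03. The forkhead genes FOXC1 and FOXC2 rose from 46.8 to 529 and from 0.0516 to 5.45 CPM and GSC, a homeobox factor, from 0.0196 to 9.11 CPM, while LOXL2, a lysyl oxidase, fell from 411 to 20.3 CPM, SOX9 from 327 to 45.0 CPM and PRRX1, a homeobox factor of mesenchyme, from 9.62 to 2.51 CPM. The PRRX1 groups overlapped, with SDs of 8.30 CPM in EV and 2.41 CPM under the KIF20A OE label (limma adjusted p = 0.046). The FOXC2 and GSC means in EV lay below the 0.143 to 0.176 CPM that 3 reads would give there. Among 8 other cadherins and catenins 1 rose and 5 fell, with a median of -1.13. CDH3 rose from 0.602 to 4.16 CPM, and CDH4 (R-cadherin) fell from 57.2 to 5.25 CPM, CDH5 (VE-cadherin) from 5.09 to 0.0417 CPM and CTNNA1, which links cadherins to actin, from 778 to 275 CPM.

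**Figure D4:**
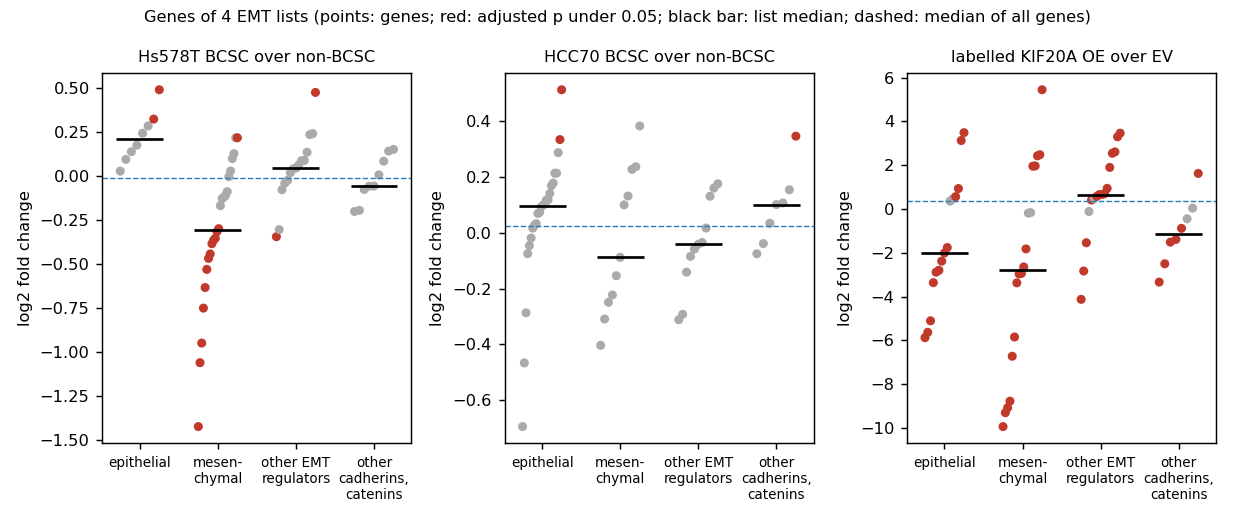
Log2 fold changes of epithelial genes, mesenchymal genes, other EMT regulators and other cadherins and catenins in 3 comparisons, 1 point per gene, red where the limma adjusted p was under 0.05, with a black bar at the list median and a dashed line at the median of all genes. The y axes differ in range: 13 of 24 mesenchymal genes fell in Hs578T BCSC, none was called in HCC70, and both epithelial and mesenchymal genes spread to either side in the libraries labelled KIF20A OE.

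Promoter sequence bears on the members because ZEB and SNAIL proteins bind the E-box CAGGTG, read as CACCTG on the other strand. RefSeq promoter entries (GRCh38.p14) matched 5 of the 10 members, ZEB1, ZEB2, TWIST2, CDH2 and VIM, and the entries of CDH1, SNAI1, SNAI2, TWIST1 and CDH11 were missing. Shown are the 250 bases before the first listed start of the 3 matched members with the largest fold changes in the libraries labelled KIF20A OE, 5′ to 3′ on the strand of the gene, with either E-box spelling in capitals. They are chr10:17227991-17228240 on the plus strand for VIM, chr10:31318167-31318416 on the plus strand for ZEB1 and chr18:28177131-28177380 on the minus strand for CDH2.
VIM: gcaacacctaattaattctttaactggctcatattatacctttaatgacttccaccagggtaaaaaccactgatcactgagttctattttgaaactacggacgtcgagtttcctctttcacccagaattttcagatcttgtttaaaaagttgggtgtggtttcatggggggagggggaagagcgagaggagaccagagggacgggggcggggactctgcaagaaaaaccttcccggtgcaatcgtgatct
ZEB1: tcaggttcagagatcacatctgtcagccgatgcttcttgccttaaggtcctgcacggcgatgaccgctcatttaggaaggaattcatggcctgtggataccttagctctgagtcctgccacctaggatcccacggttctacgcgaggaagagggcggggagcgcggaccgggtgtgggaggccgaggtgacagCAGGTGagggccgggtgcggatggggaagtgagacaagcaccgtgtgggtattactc
CDH2: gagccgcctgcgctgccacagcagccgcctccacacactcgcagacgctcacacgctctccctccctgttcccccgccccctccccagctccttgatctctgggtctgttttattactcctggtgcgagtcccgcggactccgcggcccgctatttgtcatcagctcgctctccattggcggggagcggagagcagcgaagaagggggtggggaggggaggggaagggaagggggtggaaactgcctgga
The ZEB1 window holds 1 E-box, 57 to 52 bases before the start, and the VIM and CDH2 windows hold neither spelling. Of 35116 promoters in the same table, 17.5% hold at least 1 in their 250 bases. The match is a description of letters and was not tested against the expression values.

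On GRCh38 (GENCODE 44) ZEB1 lies at chr10:31318495-31529814 and VIM at chr10:17228241-17237593, both on the plus strand, CDH1 at chr16:68737292-68835537 on the plus strand, and CDH2 at chr18:27932879-28177946 and CDH11 at chr16:64943753-65126112 on the minus strand. ZEB1 shares 396 exon bases with ZEB1-AS1, VIM 656 with VIM-AS1 and ZEB2 1299 with ZEB2-AS1 on the opposite strand. The strand setting of the counting is not given in the sources used here, so reads in the shared bases may be assigned to either gene. ZEB1-AS1 had 10.3 ± 1.67 TPM (SD, n = 3) in HCC70 non-BCSC, where ZEB1 had 0.193 ± 0.0938 TPM, and 8.62 ± 0.543 TPM in Hs578T non-BCSC. In the libraries labelled KIF20A OE ZEB1-AS1 was 10.5 against 10.1 CPM in EV (limma adjusted p = 0.78), unlike ZEB1, which fell, and VIM-AS1 fell along with VIM, from 13.3 to 4.03 CPM.

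Across the 8 group means the genes most like a member were sought by Pearson's r of log2(value + 1) over 12705 genes listed in all 4 tables with a mean of at least 1 in some group. The means come from 4 separately normalized tables in 2 units, so r is a description only. CDH1 was most like HSD11B2 (r = 0.998), DNAJA4 (0.997) and CEACAM1 (0.997), which were at 29.2, 15.9 and 9.27 TPM in HCC70 non-BCSC and at 0.146, 0.130 and 0 TPM in Hs578T non-BCSC. VIM was most like CANX (0.998), SHOX2 (0.995) and FBXO36 (0.994), and ZEB1 was most like ARHGAP31, ZNF442 (0.996 each) and BNIP3 (0.995). In each set the HCC70 groups lay apart from the other 6.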

How the data were processed

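Poly-A RNA of 24 libraries was sequenced paired-end with a stranded kit on a NovaSeq against GRCh38; the submitters' processing notes name HISAT2 2.0.5 and featureCounts 1.5.0-p3 without saying for which table. The deposited Hs578T and HCC70 tables hold TPM made by the authors, the deposited overexpression table holds CPM, and the deposited sgRNA table holds a signal of gene reads divided by a library factor (column totals 977394 to 1028621), called normalized CPM here. In the overexpression and sgRNA tables steps in the low values gave back whole reads (within 0.02 reads). In the TPM tables whole reads came from ratios between libraries and the smallest whole numbers that fit each gene (within 0.05 reads). They were recovered for 99.9948% of genes in Hs578T and 100% in the other tables, and depth was summed from them. Reads of a TPM gene may be too few where all 6 counts share a divisor.

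Each comparison was fitted within its table by limma 3.58.1 (R 4.3.3) with a trend, two-sided, on log2(value + 1), over genes with a mean of at least 1, and called at an adjusted p (Benjamini-Hochberg over all genes) under 0.05. edgeR 4.0.16 and DESeq2 1.42.0 were run on the recovered reads as alternatives, beside another pseudocount, other filters, median-of-ratios scaling, a replicate block and leaving out each library. The functions were tested on counts simulated with the same spread between replicates for every table. The measured spread differed between tables, so that run does not show what could be detected in each. No 2 libraries agreed within sampling noise. The KIF20A sg1 columns carry the group but no replicate number of a sample.

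Same-numbered replicates did not deviate together (r from -0.07 to 0.19), so the numbers were not taken as pairs. The members, the gene lists and the tests were chosen with earlier results of these data known. All 10 members are given, and from each list up to 3 genes that rose and 3 that fell most among those called; some genes that this rule names are not reported here.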

Additional observations from a re-analysis of the deposited data

Results flagged for a closer look

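SNAI2 was singled out because its difference between BCSC and non-BCSC was not the same in the sorted lines. The log2 fold change in HCC70 exceeded that in Hs578T by 0.72 (SE 0.07, limma adjusted p = 0.00035). It was lower in 3 of 3 BCSC libraries of Hs578T, at 57.7 to 60.5 TPM against 87.7 to 92.0 TPM, and overlapped between fractions in HCC70, at 29.3 to 32.7 against 27.8 to 30.0 TPM. Cell line, table and the batch number in the labels coincide in this design and cannot be told apart.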

How the results depend on the processing

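Of 434 recomputed member fold changes 409 kept their direction and their side of the threshold, 19 changed side and 6 changed sign. The sign changes were all between values that passed in neither case and came from leaving out 1 library: so left out, TWIST2 in Hs578T ranged from -0.19 to 0.040, and with KIF20A sg1 VIM ranged from -0.048 to 0.21, SNAI2 from -0.14 to 0.047 and SNAI1 from -0.10 to 0.25. In Hs578T 2 members were called, 4 by edgeR and 4 by DESeq2 and 1 to 3 without 1 library, and of 953 called genes there were 1633 by edgeR and 343 to 865 without 1 library. In HCC70 the 1 member called became 0 with no filter, with a minimum mean of 10 (under which SNAI1, with a lower mean, is not tested) and under median-of-ratios scaling, and 0 to 1 without 1 library. The 374 called genes there were 178 with no filter, 233 under median-of-ratios scaling, 715 by edgeR, 1167 by DESeq2 and 32 to 270 without 1 library. With KIF20A sg1 DESeq2 called 11 genes and leaving out 1 library gave 0 to 144, the highest without sgCtrl replicate 3. In the interaction median-of-ratios scaling called 2 members and leaving out 1 library gave 291 to 1225 genes. In the libraries labelled KIF20A OE leaving out 1 library gave 8 to 9 members. The cause was not tested.

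With the replicate number as a block, 0 members and 128 genes were called in HCC70 and 302 genes in the interaction; TWIST1 in Hs578T passed (adjusted p = 0.037), and it changed no other member's call. Not every library correlated best with its own number. No paired analysis was possible for KIF20A sg1 because its columns carry no replicate number of a sample. Counts of 0 to 12 reads limit CDH1 in Hs578T and EV, and 8 to 26 limit ZEB1 and ZEB2 in HCC70.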
